A study of Mus musculus with 59 samples.

Results

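The uncoupling proteins Ucp1, Ucp2 and Ucp3 were followed as RNA in brown adipose tissue of 59 male C57BL/6J mice aged 8-12 weeks. They were taken by name, as 3 of the 55341 genes counted in each of 3 experiments, and all 3 were detected in every mouse. Each sample was the bulk brown fat RNA of one mouse, so fewer cells of a type and less RNA per cell cannot be told apart. The first experiment followed thyroid hormone: wild type (WT) mice made hypothyroid with propylthiouracil (PTU) in the food were left at that (WT_PTU, 4 mice) or received one injection of T3 and T4 and were examined 3, 6, 12 or 24 h later (4 mice each), while BATKO mice were examined on PTU alone (5 mice) and 24 h after hormone (5 mice). The second set mice kept at 30 °C (CTRL_30C, 4 mice; BATKO_30C, 5 mice) against mice held for 24 h at 4 °C (CTRL_4C, 3 mice; BATKO_4C, 4 mice). The third set chow (CTRL_Chow, 4 mice; BATKO_Chow, 2 mice) against 3.5 days of high-fat diet, HFD (CTRL_HFD, 4 mice; BATKO_HFD, 3 mice). Neither the sample labels nor the methods used here give the genetic change in BATKO mice or how it was made. No targeted gene could therefore be checked, and BATKO is used below only as the name of a genotype.

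Uncoupling proteins are carriers of the mitochondrial inner membrane that belong to the same family as the ADP/ATP carriers. UCP1 is the proton leak of brown adipocytes: fatty acids released after noradrenaline acts on beta-adrenergic receptors open it, and the energy of the proton gradient is then given off as heat. Its gene is a classic target of thyroid hormone receptors, PPARs with their coactivator PGC-1alpha, and cAMP-dependent factors. UCP2 is found in many tissues, immune cells among them, and UCP3 mainly in skeletal muscle and brown fat; neither is needed for heat production by brown fat in the way UCP1 is, and both are linked to fatty acid use.

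Ucp1 (ENSMUSG00000031710) lies on chr8:83290352-83298452, plus strand, in GRCm38, with 6 exon blocks and without another uncoupling protein gene beside it. Ucp3 (ENSMUSG00000032942, chr7:100472990-100486432) and Ucp2 (ENSMUSG00000033685, chr7:100493337-100502020) lie head to tail on the plus strand of chromosome 7, with 6904 bases between the end of Ucp3 and the start of Ucp2. The 250 bases before the RefSeq start of each gene are printed here because all 3 genes moved after thyroid hormone, whose receptors bind DNA elements built from the letters AGGTCA. Those letters, on either strand, are in capitals. The windows are chr8:83290098-83290347 for Ucp1, chr7:100493108-100493357 for Ucp2 and chr7:100472741-100472990 for Ucp3, plus strand, RefSeq sequence of GRCm38.p6.
Ucp1: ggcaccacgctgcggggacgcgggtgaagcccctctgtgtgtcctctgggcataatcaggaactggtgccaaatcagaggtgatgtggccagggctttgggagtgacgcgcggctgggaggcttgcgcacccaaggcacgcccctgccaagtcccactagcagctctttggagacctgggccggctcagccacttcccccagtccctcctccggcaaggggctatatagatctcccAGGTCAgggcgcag
Ucp2: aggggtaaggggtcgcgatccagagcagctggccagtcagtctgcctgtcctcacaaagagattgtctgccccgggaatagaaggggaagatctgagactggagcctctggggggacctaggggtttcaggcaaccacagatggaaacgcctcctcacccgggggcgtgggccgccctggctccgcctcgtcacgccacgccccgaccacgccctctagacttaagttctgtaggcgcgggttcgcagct
Ucp3: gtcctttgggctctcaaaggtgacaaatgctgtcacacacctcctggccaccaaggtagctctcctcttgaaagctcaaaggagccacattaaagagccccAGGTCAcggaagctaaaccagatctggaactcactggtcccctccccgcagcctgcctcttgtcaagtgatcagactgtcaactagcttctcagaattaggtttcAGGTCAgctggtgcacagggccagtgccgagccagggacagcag
The letters AGGTCA occurred 1 time before Ucp1, 14 bases upstream of the start, 2 times before Ucp3, at 149 and 44 bases, and not before Ucp2. They occurred in 13.8% of the 27025 mouse promoter windows of this length, so their presence is not particular to these genes. Paired copies in the same orientation, spaced by 4 bases as thyroid hormone receptors bind them or by 1 base as PPARs do, were not in these 3 windows. Such exact pairs were in only 3 (0.0111%) and 10 (0.0370%) of the 27025 windows, so their absence is not particular to these genes. The letters TGACG, the core of a cAMP response element, occurred 1 time before Ucp1 and 1 time before Ucp2, on the minus strand, against 17.9% of all windows. The letters GGGCGG of the Sp1 box are found in 32.9% of windows and occurred 1 time, before Ucp2. The TATA box letters, found in 13.0% of windows, were met before none of the 3 genes in the form searched (TATAAA). A match of letters is a description of the sequence, and no binding was measured here.

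The libraries held between 7612059 and 18073627 counted reads, of which 39.2-55.7% came from the mitochondrial genome. Levels are given as CPM, read counts divided by library size after TMM scaling within each experiment, so levels of different experiments, which were scaled separately, are not compared by test. All 9 brown adipocyte markers other than Ucp1 were present, with a summed level of 5370-14148 CPM. Skeletal muscle markers (11 genes) varied most among the lists for other cell types, from 9.34 to 8979 CPM with 13 mice over 1000 CPM, and muscle is the other tissue in which Ucp3 is well known. Macrophage markers (9 genes) summed to 36.5-321 CPM, lymphocyte markers (8 genes) to 1.57-16.1 CPM, endothelial markers (6 genes) to 278-758 CPM and the 7 of 8 white adipocyte markers that are in the tables to 10.5-324 CPM.

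Ucp1 was the most abundant member in every mouse. Its level ran from 146 CPM in a CTRL mouse at 30 °C to 17186 CPM in a CTRL mouse at 4 °C, a 117-fold range in which its reads made up 0.0189% to 1.77% of a library. Without that lowest mouse (CTRL_30C mouse 19) the next stood at 427 CPM and the range was 40.2-fold. Ucp3 ran over a 17.4-fold range (11.5 to 200.0 CPM) and Ucp2 over an 8.69-fold range (7.12 to 61.9 CPM). With counts of 1833-196296 reads for Ucp1, 144-2664 for Ucp3 and 78-828 for Ucp2, Ucp2 was the member measured with the least depth.

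Per kilobase of mRNA, Ucp1 was the highest of the 3 members in 59 of 59 mice, at 89.5-10505 CPM per kb. Its share of the summed per-kilobase level of the 3 members was 87.0-99.4%, with a median of 98.1%. Ucp3 stood at 4.70-81.7 and Ucp2 at 1.79-15.5 CPM per kb, and Ucp3 was above Ucp2 in 56 of 59 mice. These values rest on the transcript taken for Ucp2. With its shorter transcript of 1116 bases in place of the 3988 bases of the main one, Ucp3 was above Ucp2 in 30 of 59 mice and the share of Ucp1, still the highest in all 59, was 71.6-99.2% with a median of 96.5%.

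**Figure D1:**
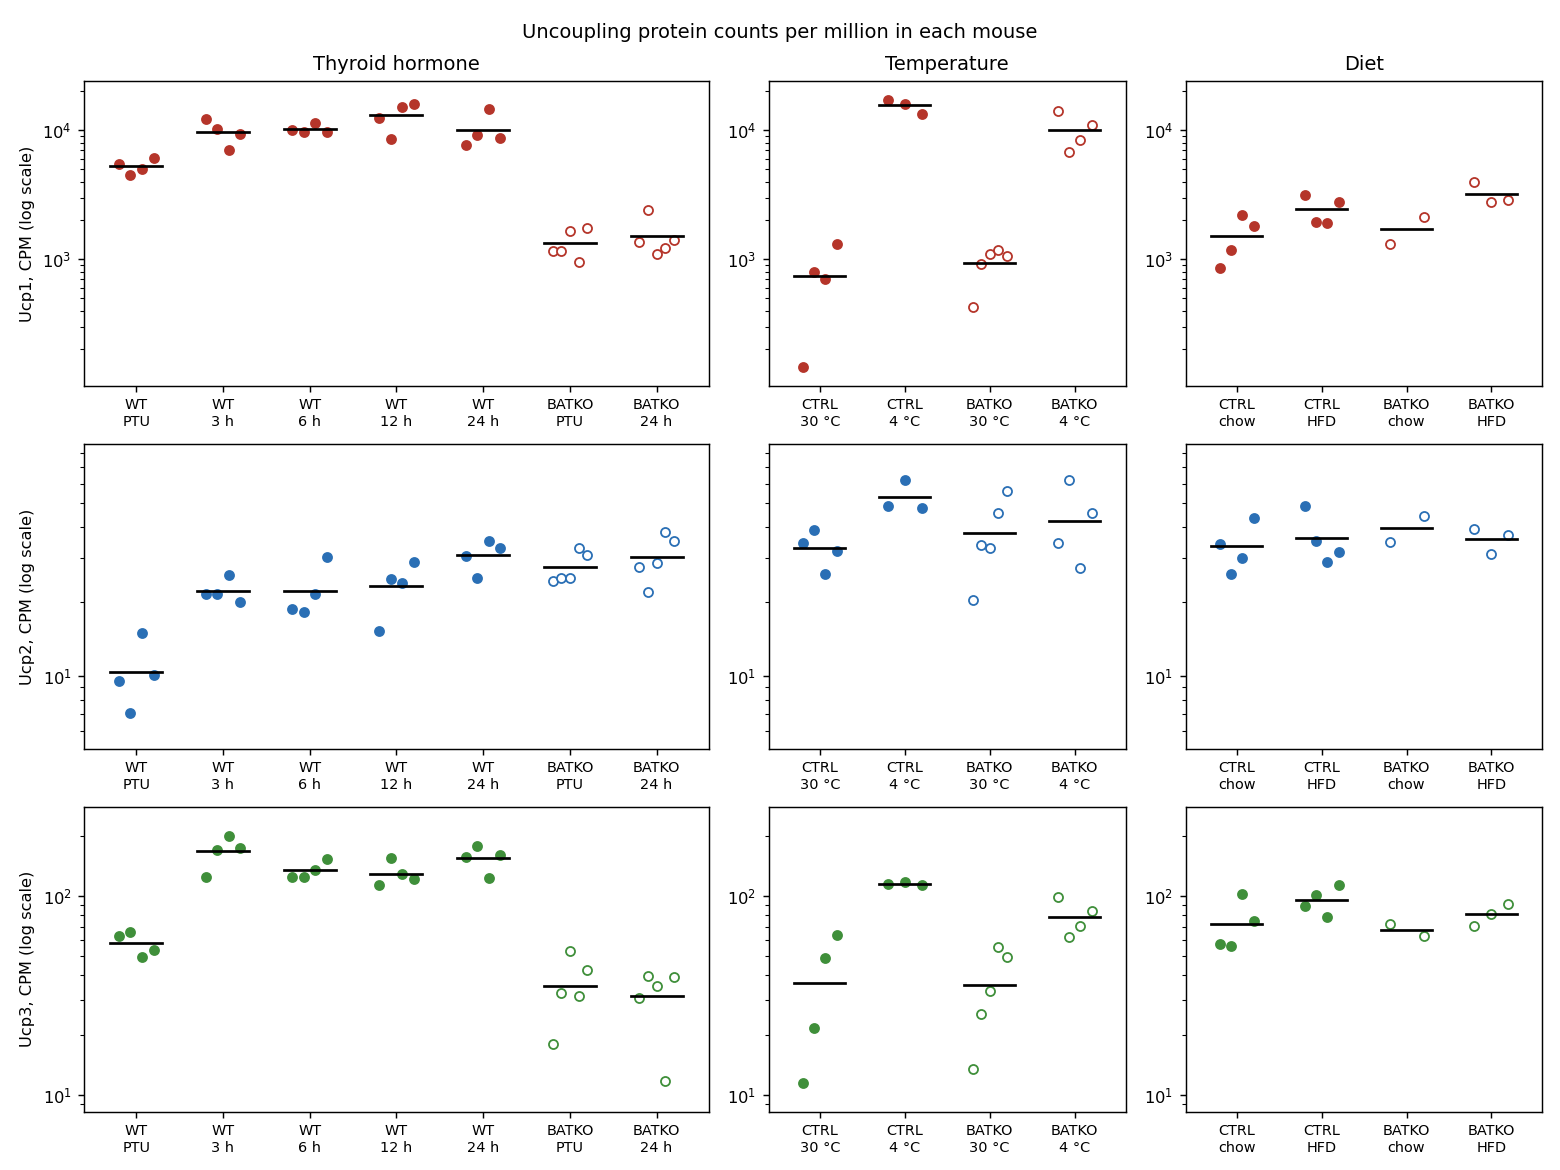
CPM of Ucp1, Ucp2 and Ucp3 in each of 59 mice, by group and experiment, on a log axis; each point is a mouse (open for BATKO) and each bar the group mean. Ucp1 spans 146 to 17186 CPM, Ucp3 11.5 to 200.0 CPM and Ucp2 7.12 to 61.9 CPM.

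Thyroid hormone raised all 3 members in WT mice at every time examined, from 3 h on. The 12 tests (3 genes at 4 times) all passed, and all 12 calls held when any one mouse was left out. In none of them did the treated mice overlap the WT_PTU mice. How many of all genes were without overlap was not counted, so that is only a description. For comparison, the share of the 13003 genes tested that was called in either direction was 9.19% at 3 h. It was 23% for the 6 h mice, 25.7% for the 12 h mice and 32.7% for those of 24 h. The 4 comparisons share the same 4 WT_PTU mice.

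Ucp1, the thermogenic member, stood at 4496, 5016, 5428 and 6121 CPM in the 4 WT_PTU mice. At 3 h it stood at 7058, 9411, 10200.1 and 12326 CPM, and at 12 h, where its mean was highest, at 8508, 12371, 15239 and 16002 CPM. Every hormone-treated mouse was thus above every PTU mouse, with a wide spread among the treated ones. The log2 fold change was 0.87 (SE 0.21, adjusted p = 0.0105) at 3 h and 0.94 (SE 0.21, adjusted p = 0.00255) at 6 h, from the quasi-likelihood test of edgeR and Benjamini-Hochberg adjustment, as are all adjusted p-values of levels here. It was 1.32 (SE 0.21, adjusted p = 7.77e-05) at 12 h and 0.93 (SE 0.21, adjusted p = 0.00164) at 24 h. In linear terms the rise was 1.83-fold at 3 h and 2.49-fold at 12 h. The summed brown adipocyte markers moved the other way, from 9525-10393 CPM on PTU to 6121-7998 CPM at 12 h and 5786-6266 CPM at 24 h.

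Ucp3 had its highest mean of the WT time course at 3 h. Its 4 WT_PTU mice stood at 49.2, 53.5, 63.1 and 66.0 CPM and the 4 mice at 3 h at 124, 170.5, 175 and 200.0 CPM. The groups were far apart: the rise at 3 h was 2.85-fold (log2 1.51, SE 0.14, adjusted p = 4.71e-07). At 24 h the 4 mice stood at 123, 156, 160.2 and 178 CPM. The log2 fold change from PTU was then 1.41 (SE 0.14, adjusted p = 2.27e-07), against 1.20 at 6 h and 1.17 at 12 h.

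Ucp2 had its highest mean of the WT time course at 24 h. The WT_PTU mice stood at 7.12, 9.58, 10.1 and 14.9 CPM, and the mice at 3 h at 19.9, 21.4, 21.5 and 25.5 CPM, already separate. The mice at 24 h stood at 24.8, 30.5, 32.9 and 35.3 CPM. The log2 fold change was 1.05 (SE 0.21, adjusted p = 0.00248) at 3 h and 1.55 (SE 0.21, adjusted p = 7.72e-06) at 24 h, that is 2.07-fold and 2.93-fold. The macrophage markers, listed because Ucp2 is also an immune cell gene, overlapped between these groups, at 53.3-89.1 CPM on PTU, 62.2-172 CPM at 3 h and 68.0-119.7 CPM at 24 h; at 24 h 1 of the 9 was called, Cd68, which was higher (0.89, adjusted p = 0.0107).

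No step between neighbouring times passed the test for any member. From 3 to 6 h the log2 change was 0.07 for Ucp1 (adjusted p = 0.911), 0.01 for Ucp2 (adjusted p = 0.989) and -0.31 for Ucp3 (adjusted p = 0.272), where 2.8% of genes were called. From 6 to 12 h it was 0.38, 0.08 and -0.03 (adjusted p = 0.333, 0.868 and 0.929; 2.95% of genes called), and from 12 to 24 h -0.39, 0.41 and 0.24 (adjusted p = 0.242, 0.194 and 0.28; 11.4% called). The time at which a member stood highest is therefore a description of group means.

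**Figure D2:**
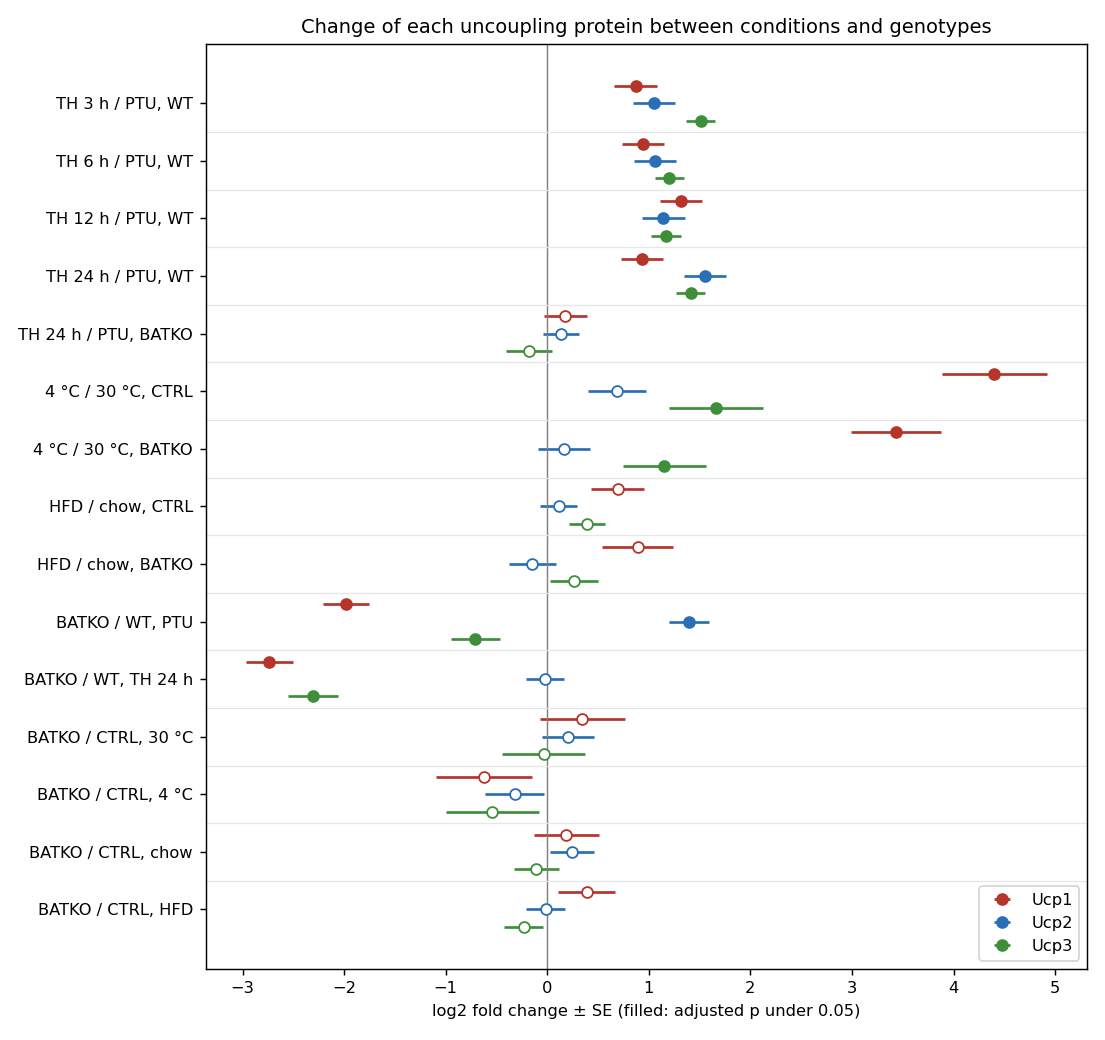
Log2 fold change (horizontal axis, bars ± SE) of each member in 15 comparisons, each named as first group / second group, with filled marks for adjusted p under 0.05. All 12 marks of the WT hormone time course lie above 0 and are filled; in cold the Ucp1 marks stand apart at 4.40 in CTRL and 3.43 in BATKO mice.

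Other genes of the pathway are given by their counts, to be read against the 9.19%, 23%, 25.7% and 32.7% of all genes called at 3, 6, 12 and 24 h. Of 20 brown adipocyte and thermogenic genes, 5 rose and 1 fell at 3 h, and 7 rose and 4 fell at 24 h, with medians of 0.23 and 0.24 on the log2 scale. Dio2, the deiodinase that makes T3 from T4 inside brown adipocytes, rose by 1.84 (SE 0.53, adjusted p = 0.0337) at 3 h, and Ppargc1a, which encodes PGC-1alpha, by 1.42 (SE 0.40, adjusted p = 0.027). Ppargc1a was also called at 6 h (1.86, adjusted p = 0.00199) but not at 12 h (0.57, adjusted p = 0.315) or 24 h (0.72, adjusted p = 0.168), and Dio2 was called at 6 and 12 h but not at 24 h (1.37, adjusted p = 0.051). Of 12 genes of the adrenergic signal and lipolysis none was called at 3 h, while 4 rose and 3 fell at 12 h. Adrb3, the beta-3 adrenergic receptor of adipocytes, was among the fallen, at a log2 fold change of -3.22 (SE 0.37) at 12 h. Of 17 activators of Ucp1 transcription 3 rose and 1 fell at 3 h, and 3 rose and 5 fell at 24 h. Of 6 repressors of Ucp1 transcription 0 rose and 1 fell at 3 h, 1 rose and 3 fell at 6 h, and 0 rose and 3 fell at 12 h and at 24 h, with medians of -0.34, -0.60, -0.67 and -0.47. The one that rose at 6 h was Nr1d1, the gene of the clock repressor REV-ERBalpha (1.26, SE 0.36, adjusted p = 0.0148). Nrip1, which encodes the corepressor RIP140, stood at -1.21 at 12 h and -1.27 at 24 h, both called. Of 15 genes of fatty acid use 0 were called at 3 h, and 1 rose and 6 fell at 24 h. The median of all genes tested at 3 h was 0.01.

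Of the thyroid hormone receptor genes, Thra fell and Thrb was not called. Thra was lower at 6 h (log2 fold change -0.40, adjusted p = 0.0202), 12 h (-0.57, adjusted p = 0.00162) and 24 h (-0.38, adjusted p = 0.0211). Thrb did not pass at any time, with log2 values of -0.30, -0.17, 0.17 and 0.23 from 3 to 24 h.

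In BATKO mice no member was called 24 h after the hormone. Ucp1 stood at 947, 1149, 1166, 1641 and 1744 CPM on PTU and at 1107, 1226, 1371, 1401 and 2414 CPM after hormone, and the groups overlapped (log2 fold change 0.18, SE 0.21, adjusted p = 0.979). Ucp2 stood at 24.3, 24.9, 25.0, 31.0 and 33.0 CPM on PTU and at 21.8, 27.6, 28.8, 35.1 and 38.3 CPM after hormone (0.13, SE 0.17, adjusted p = 0.98). Ucp3 stood at 18.02, 31.4, 32.4, 42.5 and 52.7 CPM on PTU and at 11.8, 30.7, 35.1, 39.2 and 39.5 CPM after hormone (-0.18, SE 0.23, adjusted p = 0.98). For all 3 genes the 2 groups overlapped. The share of genes called in this comparison was 0% of 14178, with 673 genes at an unadjusted p under 0.05, and DESeq2 called 0.

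The response to hormone itself differed between the genotypes for Ucp2 and Ucp3. The BATKO response minus the WT response at 24 h was -1.42 on the log2 scale for Ucp2 (SE 0.27, adjusted p = 0.000922) and -1.60 for Ucp3 (SE 0.34, adjusted p = 0.0028), among 12.3% of genes called. For Ucp1 it was -0.75 (SE 0.32, adjusted p = 0.117), which did not pass; without the BATKO mouse at 2414 CPM (mouse 15) it was -1.01 with an adjusted p of 0.0259, so that call rested on 1 library. Of the comparison genes, Esrrg, an orphan nuclear receptor active in brown fat, had a difference of -1.38 (SE 0.25).

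The starting levels of the genotypes differed as well. On PTU, Ucp1 was lower in BATKO than in WT mice (log2 -1.99, SE 0.23, adjusted p = 5.72e-09) with no overlap: the highest BATKO mouse was at 1744 CPM and the lowest WT mouse at 4496 CPM. Ucp2 was higher in BATKO mice (1.39, SE 0.20, adjusted p = 3.53e-07), with 24.3 CPM in the lowest BATKO mouse against 14.9 CPM in the highest WT mouse. Ucp3 was lower (-0.71, SE 0.24, adjusted p = 0.0102), with ranges that overlapped. At 24 h after hormone Ucp1 and Ucp3 were further apart, at -2.74 (SE 0.23, adjusted p = 1.19e-11) and -2.31 (SE 0.25, adjusted p = 1.48e-09), whereas Ucp2 stood at -0.03 (SE 0.19, adjusted p = 0.906). The Ucp2 level of untreated BATKO mice overlapped that of hormone-treated WT mice.

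These genotype contrasts need to be read against the background: 70.3% of genes were called between BATKO and WT mice on PTU and 69.7% at 24 h. Whether WT and BATKO mice were littermates, or were handled and sequenced together, is not given in the sources used here, so genotype and any such batch cannot be told apart. The BATKO_PTU libraries were deeper, with 14681206-18073627 counted reads against 12022144-14615534 in WT_PTU. Markers of brown adipocytes and of other cell types moved with the genotype as well. On PTU, 7 of 9 brown adipocyte markers were lower in BATKO mice and 1 higher (median log2 -0.95, against 0.02 over all genes), although their sums overlapped, at 8724-10184 CPM in BATKO_PTU and 9525-10393 CPM in WT_PTU. White adipocyte markers summed to 29.4-52.4 CPM in BATKO_PTU and 106-118 CPM in WT_PTU, without overlap, yet of the 4 that could be tested 2 were higher in BATKO mice (Nnat and Lep, at 3.67 and 2.21) and 1 lower, with a median of 1.24. Of 6 endothelial markers 5 were higher and 1 lower on PTU, with sums of 429.9-488 against 349-358 CPM. The macrophage markers were at 39.5-62.1 CPM in BATKO_PTU, thus not above the 53.3-89.1 CPM of WT_PTU, while Ucp2 was higher; 4 of the 9 were lower in BATKO mice and 0 higher. At 24 h after hormone 4 of 9 brown adipocyte markers were lower and 1 higher (median -0.35). Their sums went the other way without overlap, at 7609-12541 CPM in BATKO_TH24h and 5786-6266 CPM in WT_TH24h. Of the 11 skeletal muscle markers 6 were then lower and 0 higher in BATKO mice (median -2.69), with sums of 40.2-375 CPM against 319.8-1316 CPM in WT mice, beside the lower Ucp3. Of the 9 macrophage markers 6 were lower at that time (median -1.02), where 69.7% of all genes were called, with sums of 41.1-61.7 against 68.0-119.7 CPM. Of the 6 endothelial markers 5 were then higher and 0 lower (median 0.65), with sums of 450-608 against 335-375 CPM. White adipocyte markers summed to 29.2-46.7 CPM in BATKO and 56.6-107.5 CPM in WT mice at 24 h. Of the 4 tested 1 was higher and 1 lower. The part of these cell types in the genotype differences of the members was not tested. Thrb was lower in BATKO mice by log2 values of -0.60 on PTU (adjusted p = 0.000442) and -0.56 after hormone (adjusted p = 0.000945); Thra was at -0.03 and 0.19, neither called.

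Cold exposure raised Ucp1 in both genotypes, with the largest fold change of any member in any comparison. In CTRL mice Ucp1 stood at 146, 701, 794 and 1301 CPM at 30 °C and at 13415, 16088 and 17186 CPM at 4 °C. The lowest cold mouse was thus far above the highest warm one, and the fold was 21.2 (log2 4.40, SE 0.52, adjusted p = 4.56e-06). In BATKO mice it stood at 427, 920.1, 1059.9, 1097 and 1172 CPM at 30 °C and at 6798, 8383, 10961 and 14214 CPM at 4 °C. There again no mice overlapped, and the fold was 10.8 (log2 3.43, SE 0.44, adjusted p = 2.22e-05). The background was 49.1% of 13267 genes called in CTRL mice and 40.3% in BATKO mice.

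Ucp3 rose with cold as well, in both genotypes. In CTRL mice it stood at 11.5, 21.8, 48.8 and 63.6 CPM at 30 °C and at 113, 114 and 117 CPM at 4 °C, a wide spread in the warm and a narrow one in the cold, without overlap (3.15-fold, log2 1.66, SE 0.46, adjusted p = 0.00726). In BATKO mice it stood at 13.5, 25.5, 33.2, 49.6 and 55.5 CPM at 30 °C and at 62.5, 70.2, 83.8 and 98.5 CPM at 4 °C, again apart (2.22-fold, log2 1.15, SE 0.41, adjusted p = 0.0329). That BATKO call was lost when any one of 6 of the 9 mice was left out: BATKO_4C mice 7, 8 and 11 and BATKO_30C mice 13, 14 and 15, with adjusted p of 0.0517-0.0896.

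Ucp2 did not pass the test with cold in either genotype. In CTRL mice it stood at 25.9, 32.0, 34.4 and 39.0 CPM at 30 °C and at 47.8, 48.9 and 61.8 CPM at 4 °C. The groups did not overlap, but the test did not pass (log2 0.69, SE 0.29, adjusted p = 0.0595), although it did with DESeq2 (adjusted p = 0.046) or when only the groups compared were fitted (adjusted p = 0.00803). In BATKO mice it stood at 20.4, 32.8, 33.9, 45.6 and 56.1 CPM at 30 °C and at 27.3, 34.6, 45.5 and 61.9 CPM at 4 °C, overlapping (0.16, SE 0.26, adjusted p = 0.633).

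No member differed in cold response between BATKO and CTRL mice past the test. The difference was -0.97 for Ucp1 (SE 0.64, adjusted p = 0.433), -0.52 for Ucp2 (SE 0.39, adjusted p = 0.496) and -0.51 for Ucp3 (SE 0.62, adjusted p = 0.709), with 1.12% of genes called. At 4 °C, BATKO against CTRL mice were at -0.63 for Ucp1 (adjusted p = 0.555), -0.32 for Ucp2 (adjusted p = 0.631) and -0.54 for Ucp3 (adjusted p = 0.606), with 2.16% of genes called. The 4 BATKO mice were all below the 3 CTRL mice for Ucp3 at 4 °C, without that reaching the threshold. At 30 °C the values were 0.35, 0.20 and -0.04 (adjusted p = 0.778, 0.787 and 0.982), with 0.00754% of genes called, that is 1 gene; 1209 genes were at an unadjusted p under 0.05 and DESeq2 called 8.

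Other genes of the pathway are given by their counts, where 49.1% of all genes were called in CTRL and 40.3% in BATKO mice. Of the 20 brown adipocyte and thermogenic genes, 18 rose and 1 fell in CTRL mice (median log2 fold change 2.05) and 15 rose and 0 fell in BATKO mice (median 1.13). Elovl3, an enzyme that lengthens fatty acids, had the largest change of that list in CTRL mice, 10.33 (SE 0.77). Of 12 adrenergic and lipolysis genes 8 rose and 1 fell in CTRL and 7 rose and 1 fell in BATKO mice. Adcy3, an adenylyl cyclase gene, rose by 3.29 (SE 0.28) on the log2 scale in CTRL mice. Of 15 fatty acid use genes 11 rose and 1 fell in CTRL (median 0.92) and 12 rose and 1 fell in BATKO mice (median 0.98). Of the 17 activators of Ucp1 transcription, 4 were up and 3 down in CTRL and 5 up and 4 down in BATKO mice, and of the 6 repressors 2 were up and 2 down in CTRL and 2 up and 3 down in BATKO mice. The summed brown adipocyte markers went from 5370-6249 CPM at 30 °C to 12091-14148 CPM at 4 °C in CTRL mice and from 5720-6812 to 10824-13649 CPM in BATKO mice. Macrophage markers summed to 86.7-100.3 CPM at 4 °C and 100.5-172 CPM at 30 °C in CTRL mice, with 2 of 9 called lower where 49.1% of all genes were called, and in BATKO mice 1 of 9 was higher and 1 lower. Lymphocyte markers summed to 2.26-4.94 CPM at 4 °C and 6.61-10.1 CPM at 30 °C in CTRL mice. Of the 4 white adipocyte markers tested 2 fell with cold in both genotypes, Lep with a log2 fold change of -4.90 and Nnat of -4.31 in CTRL mice. The part of these cell types in the cold values of the members was not tested.

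Skeletal muscle markers were uneven in this experiment. They summed to 9.34, 61.2, 2116 and 5060 CPM in the CTRL mice at 30 °C, to 157-701 CPM in the CTRL mice at 4 °C, to 11.7-8979 CPM in the BATKO mice at 30 °C and to 22.1-1825 CPM in the BATKO mice at 4 °C. At 30 °C the mouse with the most muscle markers was not the one with the most Ucp3 in either genotype. The BATKO_30C mouse with 8234 CPM of muscle markers had 13.5 CPM of Ucp3, the lowest of its group, and the one with 8979 CPM had 49.6 CPM. The CTRL_30C mouse with the lowest Ucp1 and Ucp3 (mouse 19) had the fewest muscle markers, 9.34 CPM. Over the whole series the mouse with the most muscle markers was also the one with the most Ucp3 in 7 of 15 groups, among them all 4 diet groups and BATKO_4C. The part of muscle RNA in the Ucp3 values was not tested. Leaving out the 13 mice over 1000 CPM, an alternative chosen after the data had been seen, left the CTRL cold response of Ucp1 (4.44, adjusted p = 0.00132) and Ucp3 (1.63, adjusted p = 0.0375) called, brought Ucp2 past the test (0.67, adjusted p = 0.0276), and left 1 BATKO mouse at 4 °C. With that lone mouse, assumed to vary like the other groups, the BATKO cold response was 2.69 for Ucp1 (adjusted p = 0.0535) and 0.73 for Ucp3 (adjusted p = 0.55).

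**Figure D3:**
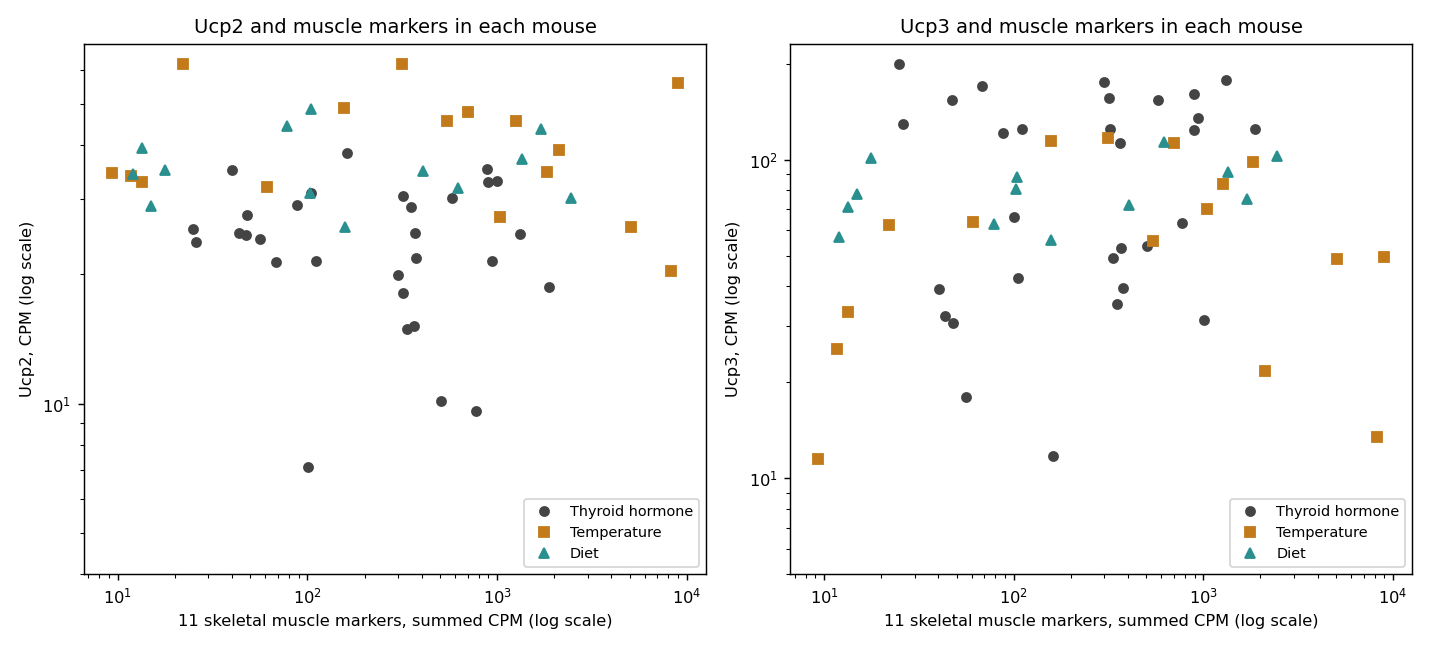
Ucp2 (left) and Ucp3 (right) in CPM in each of 59 mice against the summed CPM of 11 skeletal muscle markers, both axes logarithmic, with colours and marks for the 3 experiments. Mice with 8234 and 8979 CPM of muscle markers sit at 13.5 and 49.6 CPM of Ucp3, within the range of the other mice at 30 °C.

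High-fat diet for 3.5 days moved no member past the test. Ucp1 stood at 863, 1180.4, 1816 and 2184 CPM in chow-fed CTRL mice and at 1910.5, 1929, 2786 and 3137 CPM in HFD-fed ones, higher on average but overlapping (log2 0.69, SE 0.26, adjusted p = 0.153). In BATKO mice it stood at 1316 and 2122 CPM on chow and at 2772, 2866 and 3936 CPM on HFD, apart but from 2 and 3 mice (0.89, SE 0.35, adjusted p = 0.259). Ucp3 stood at 55.9, 57.1, 75.1 and 102 CPM on chow and at 77.9, 88.5, 101 and 113 CPM on HFD in CTRL mice (0.39, SE 0.18, adjusted p = 0.224). Chow and HFD mice overlapped there too.

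For Ucp2 the diet difference was 0.11 (SE 0.18, adjusted p = 0.762) in CTRL mice and -0.15 (SE 0.23, adjusted p = 0.789) in BATKO mice, and for Ucp3 in BATKO mice 0.26 (SE 0.23, adjusted p = 0.614). The background was 3.94% of 12932 genes called in CTRL and 0.0696% in BATKO mice. These calls were not firm against the settings: the Ucp3 difference in CTRL mice passed without chow mouse 3 (adjusted p = 0.0391), Ucp1 and Ucp3 in CTRL mice passed without the mice rich in muscle markers (1.25, adjusted p = 0.0274, and 0.75, adjusted p = 0.0225), and Ucp1 passed in both genotypes without a filter on low counts. Muscle markers ran to 2458 CPM on chow and 623 CPM on HFD in CTRL mice. The macrophage markers summed to 152-321 CPM on HFD and 104-121 CPM on chow in CTRL mice, with 2 of 9 called higher and 7 not called, while Ucp2 overlapped. In BATKO mice they summed to 125-217 CPM on HFD and 218-279 CPM on chow, with 0 of 9 called.

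BATKO and CTRL mice did not differ past the test in diet response, on HFD or on chow. The differences in response were 0.20 for Ucp1, -0.26 for Ucp2 and -0.12 for Ucp3 (adjusted p = 0.987, 0.967 and 0.988). On HFD they were 0.39, -0.02 and -0.23, and on chow 0.19, 0.24 and -0.11, with adjusted p between 0.843 and 0.993. Each of these 3 comparisons called 0% of genes with edgeR in the fit over all diet groups; unadjusted p under 0.05 was reached by 740, 691 and 1024 genes, and DESeq2 called 0, 12 and 31. A fit of only the groups compared called 114 genes between genotypes on chow, and edgeR without a filter on low counts called 216, 59 and 290. Of the brown adipocyte and thermogenic genes 7 of 20 rose and 1 fell with HFD in CTRL mice (median 0.46), and 1 rose in BATKO mice.

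The ordered group means summarise these levels. For Ucp1 in the hormone experiment the BATKO groups on PTU and after hormone overlapped, WT_PTU stood apart above them, and the hormone-treated WT groups, which overlapped one another, stood apart above WT_PTU. For Ucp2 WT_PTU stood apart below all other groups, which formed one overlapping series up to WT at 24 h. For Ucp3 BATKO_TH24h, BATKO_PTU and WT_PTU overlapped as neighbours and the hormone-treated WT groups stood apart above them. In the temperature experiment the split fell between 30 and 4 °C for Ucp1, between CTRL_4C and the rest for Ucp3, and nowhere for Ucp2. On the diets no neighbouring groups were apart for any member.

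Some ratios between the members stood apart between cold and warm mice and, in the hormone experiment, between genotypes. None passed after adjustment for all ratios, which groups of this size could hardly reach. The count ratio of Ucp1 to Ucp3 (geometric mean) was 19.2 in CTRL mice at 30 °C and 135 at 4 °C, a log2 difference of 2.81 without overlap (exact two-sided permutation p = 0.0571, the smallest that 3 against 4 mice allow). In BATKO mice that difference was 2.16 (exact permutation p = 0.0159). The ratio of Ucp1 to Ucp2 was higher at 4 °C by 4.07 in CTRL mice and 3.28 in BATKO mice on the log2 scale, again without overlap, while that of Ucp3 to Ucp2 overlapped between temperatures in both genotypes. Between genotypes on PTU, the ratio of Ucp1 to Ucp2 was 519.7 in WT and 47.2 in BATKO mice (log2 difference -3.46), and that of Ucp3 to Ucp2 was 5.72 and 1.22 (-2.23), each with an exact permutation p of 0.0159; for Ucp1 to Ucp3 the log2 difference was -1.23, also without overlap. At 24 h after hormone the ratio of Ucp1 to Ucp2 stood at -2.71 and that of Ucp3 to Ucp2 at -2.37 between genotypes, without overlap (exact permutation p = 0.0159 each), while that of Ucp1 to Ucp3 overlapped (-0.34). In the temperature and diet experiments all 12 ratios compared between BATKO and CTRL mice overlapped. Between diets, Ucp1 to Ucp2 was higher on HFD than on chow in BATKO mice by 1.06 on the log2 scale, without overlap. Its exact permutation p of 0.2 is the smallest that 3 against 2 mice allow. Of 54 such tests, 10 had groups without overlap and 8 an unadjusted p under 0.05. None passed after Benjamini-Hochberg adjustment, the smallest adjusted exact permutation p being 0.122. All 10 without overlap were at the smallest p their group sizes allow, which is 0.0159 for 5 against 4 mice. With so few mice and 54 tests the adjustment could hardly be passed, so no conclusion is drawn from it. Ratios in the WT time course had exact permutation p between 0.0857 and 1.

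**Figure D4:**
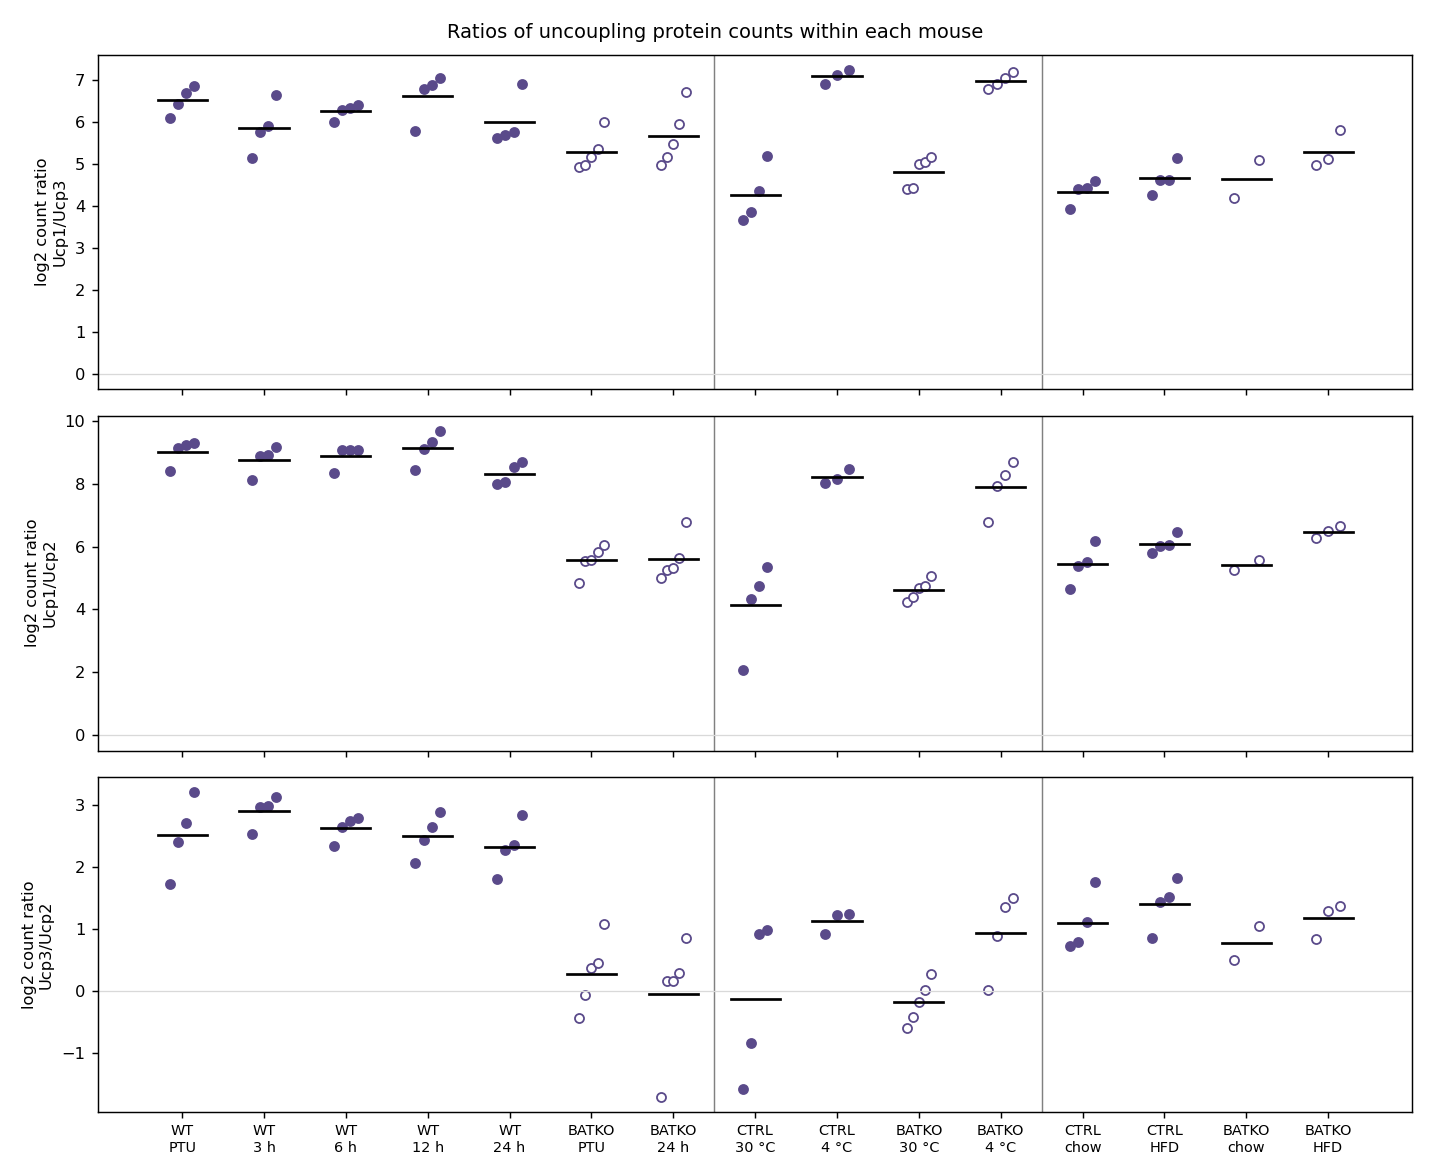
Log2 count ratios Ucp1/Ucp3, Ucp1/Ucp2 and Ucp3/Ucp2 of each mouse by group; points are mice (open for BATKO), bars are group means and vertical lines part the 3 experiments. Ucp1/Ucp3 lies higher at 4 °C than at 30 °C in both genotypes, and Ucp1/Ucp2 and Ucp3/Ucp2 lie lower in BATKO than in WT mice on PTU.

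Over the 15 group means, centred within each experiment on the log2 scale, Ucp1 and Ucp3 varied together (Pearson r = 0.916), whereas Ucp2 went with neither (r = 0.125 with Ucp1 and 0.164 with Ucp3). The points share experiments, controls and scaling, so these are descriptions. Of 8480 genes with a mean count above 50 in all 3 experiments, those most like Ucp1 over the 15 means were Mrps14 (r = 0.989) and Mrps2 (r = 0.987), which encode proteins of the mitochondrial ribosome, and Pigo (r = 0.986), which works in GPI anchor synthesis. Most like Ucp3 were Them4, a thioesterase gene (r = 0.976), Cdk17 (r = 0.973) and Adam17 (r = 0.971). Most like Ucp2 were Sympk (r = 0.925), which acts in mRNA 3' end processing, the kinase gene Akt1 (r = 0.923) and Fam160b2 (r = 0.923). Taken mouse by mouse, and so not the same measure as r over group means, these relations were weaker in the diet experiment. Over single mice r was 0.832-0.974 in the hormone experiment and 0.724-0.952 in the temperature experiment. Over the 13 diet mice it was 0.369 for Mrps14, 0.753 for Mrps2, 0.704 for Pigo and 0.583 for Them4. It was -0.214 for Cdk17, 0.138 for Adam17, -0.050 for Sympk, 0.397 for Akt1 and -0.179 for Fam160b2.

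Within groups, mice with more Ucp1 did not always have more Ucp3. These relations between deviations from group means were computed after the data had been seen, 15 in all. Among the 20 WT mice of the hormone experiment, Ucp1 and Ucp3 were inversely related (Pearson r = -0.69, permutation p = 0.00602, adjusted 0.0451; Spearman rho = -0.67, permutation p = 0.00632, adjusted 0.0948), and r was -0.57 without the 2 mice farthest from the median. Among the 9 mice at 30 °C they rose together (r = 0.86, exact permutation p = 0.00521, adjusted 0.0451; rho = 0.70, exact permutation p = 0.0799, adjusted 0.299). There r was 0.54 without CTRL_30C mouse 19 and BATKO_30C mouse 13, so the relation rested in part on these. Among the 7 mice at 4 °C r was 0.96 (exact permutation p = 0.0278, adjusted 0.139; rho = 0.96, exact permutation p = 0.0694, adjusted 0.299), and 0.78 without BATKO_4C mice 11 and 12. Of the 15 relations these first 2 passed after adjustment by Pearson's r, none did by Spearman's rho, and the other 13 passed by neither.

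**Figure D5:**
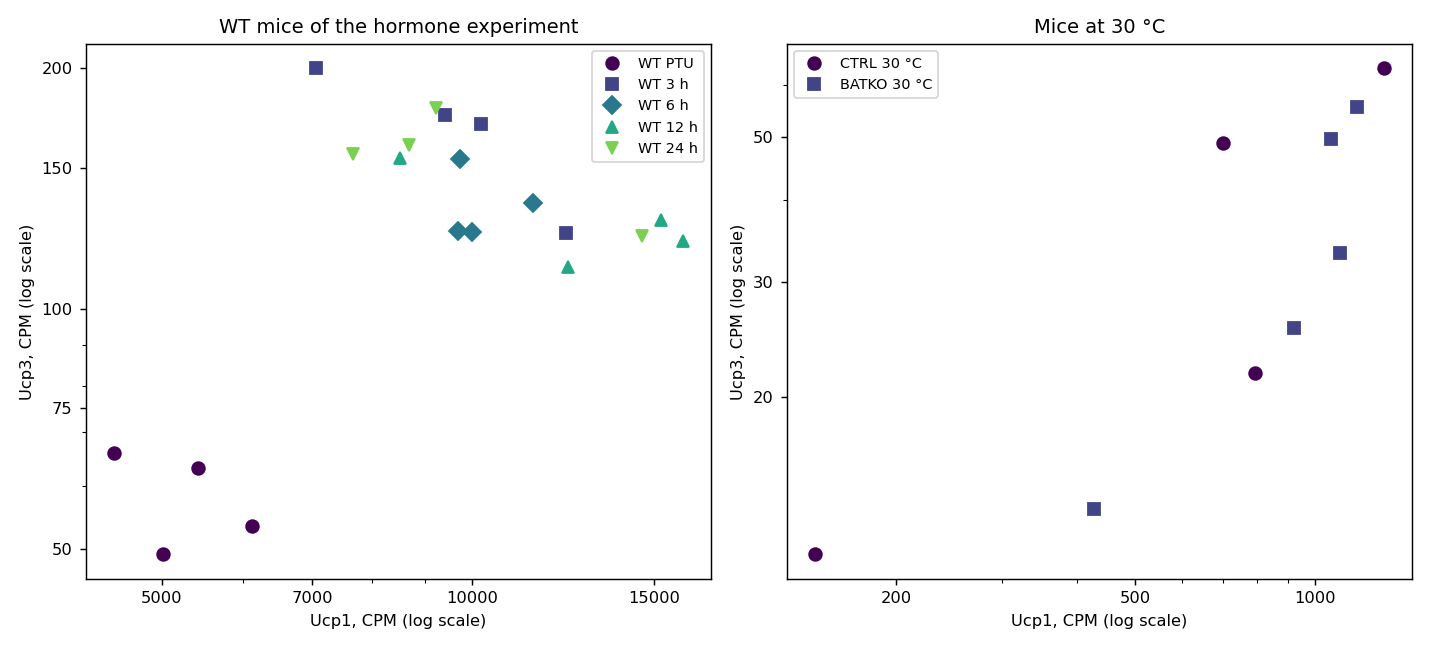
Ucp3 against Ucp1, both in CPM on log axes, in the 20 WT mice of the hormone experiment (left) and the 9 mice at 30 °C (right), each point a mouse marked by group. Within the WT hormone groups mice with more Ucp1 tend to have less Ucp3 (r = -0.69), while at 30 °C both are low together in CTRL_30C mouse 19 and BATKO_30C mouse 13.

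Ucp2 and Ucp3 each overlap a gene on the opposite strand. Dnajb13, which shares 305 exon bases with Ucp2 on the opposite strand, reached at most 7 counts in a mouse. Gm10603, antisense over the start of Ucp3, shares no exon bases with it in the annotation used here and reached at most 257 counts, with a mean of 14.7 CPM in WT mice at 3 h. It was called in the same direction as Ucp3 at 3 h (0.69), at 6 h (0.62), with cold in CTRL (2.12) and BATKO mice (2.13), and between BATKO and WT mice on PTU (-2.08) and after hormone (-1.40). At 24 h after hormone in WT mice it was called in the opposite direction (-0.70), and at 12 h it was not called (0.11). Whether reads were counted by strand is not given in the sources used here.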

How the data were processed

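RNA was sequenced from brown fat of 59 mice in 3 experiments, each deposited as one table of counts. The authors aligned reads to GRCm38 (mm10) with Bowtie (Bowtie2 2.3.2.2 per the labels; the study's methods give another version), removed reads of alignment quality below 10 and counted reads per gene with htseq-count; annotation and strand setting are not given in the sources used here. The deposited counts are raw. Samples were grouped by their labels; the mouse numbers pair no animals across groups. Nothing says whether litters or cages were shared, so p-values measure the spread between these mice.

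Each table was filtered to genes with a mean count above 10, scaled by TMM and fitted with edgeR 4.0.16 (quasi-likelihood test, R 4.3.3). Each fit held all groups of an experiment, except that the WT hormone times were fitted on the 20 WT mice alone. The BATKO comparisons of the hormone experiment came from the fit of all its 30 mice. P-values were Benjamini-Hochberg adjusted over all genes, with a threshold of 0.05. The code was tested on simulated data. No 2 mice of a group were within sampling noise of each other (91 pairs, lowest chi-square per degree of freedom 6.89). Ratios between members were tested by exact permutation with scipy 1.17.1. Genes named from the lists had the 2 largest changes of their list among those called. Apart from these, Dio2, Ppargc1a and the hormone's receptors Thra and Thrb were followed by name, whether called or not. Genes most like a member were the 3 with the highest Pearson r over group means. Alternatives were DESeq2 1.42.0, RLE scaling, other count filters, other sets of mice in the fit, no mitochondrial genes and leaving out each mouse. Those chosen after seeing the data were leaving out mice rich in muscle markers and the relations within groups. The members and gene lists were chosen with earlier results of these data known. Promoter sequences are from RefSeq.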

Additional observations from a re-analysis of the deposited data

Results flagged for a closer look

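The Ucp2 response to 24 h of thyroid hormone differed between genotypes by -1.42 on the log2 scale (BATKO minus WT; SE 0.27, adjusted p = 0.000922, interaction term in edgeR), with all 4 treated WT mice above all 4 WT_PTU mice and BATKO groups that overlapped. The same interaction was -1.60 for Ucp3 (SE 0.34, adjusted p = 0.0028). On PTU alone Ucp2 was already higher in BATKO than in WT mice, and Ucp3 lower.

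In BATKO_TH24h, mouse 15 had 2414 CPM of Ucp1 against 1107-1401 CPM in the other 4 mice, a gap of 0.775 of the group's range. Of 36 groups of member levels examined for a lone mouse this was the 1 found; chance gives about 1 in 20, or 1.8 here. Without it the Ucp1 interaction was -1.01 (adjusted p = 0.0259) in place of -0.75 (adjusted p = 0.117).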

How the results depend on the processing

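The 12 hormone calls in WT mice held under every alternative and with any one mouse left out. RLE scaling, a mean count above 50 or leaving out mitochondrial genes changed no member's side of the threshold. With DESeq2 the Ucp2 genotype difference at 24 h became 0.021, and with RLE 0.010. The Ucp2 cold response in CTRL mice passed with DESeq2 (0.67) and in a fit of only the groups compared (0.67). Without a filter on low counts Ucp1 passed on HFD in CTRL (0.69, adjusted p = 0.00301) and BATKO mice (0.89, adjusted p = 0.013).

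Leaving out mice rich in muscle markers gave -0.011 for Ucp2 from 6 to 12 h, 0.67 for Ucp2 in cold CTRL mice, 2.69 and 0.73 for Ucp1 and Ucp3 in cold BATKO mice, 0.074 for the Ucp2 cold interaction, 0.22 for Ucp2 between genotypes at 4 °C (these were -0.52 and -0.32 with all mice), 0.0074 for Ucp3 at 30 °C, 1.25 and 0.75 for Ucp1 and Ucp3 with HFD in CTRL mice, -0.27 for the Ucp1 diet interaction and 0.25 for Ucp3 between genotypes on chow.

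Leaving out each mouse in turn gave, from 3 to 6 h, -0.058 to 0.21 for Ucp1 and -0.18 to 0.094 for Ucp2, and from 6 to 12 h -0.041 to 0.27 for Ucp2 and -0.13 to 0.033 for Ucp3. In BATKO mice with hormone it gave -0.065 to 0.29 for Ucp1 and -0.35 to 0.029 for Ucp3, for the Ucp1 interaction -1.01 to -0.52, and for Ucp2 between genotypes at 24 h -0.14 to 0.045. In cold BATKO mice it gave -0.087 to 0.35 for Ucp2 and 0.94 to 1.37 for Ucp3, and between genotypes at 30 °C -0.33 to 0.35 for Ucp3. With HFD it gave -0.078 to 0.25 for Ucp2 and 0.27 to 0.59 for Ucp3 in CTRL mice, -0.31 to 0.039 for Ucp2 in BATKO mice, and -0.10 to 0.59 for the Ucp1 interaction. Between genotypes it gave -0.11 to 0.16 for Ucp2 on HFD, and -0.20 to 0.49 for Ucp1 and -0.22 to 0.092 for Ucp3 on chow.

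Counts of called genes moved more. DESeq2 called 620 genes from 6 to 12 h (384 with edgeR), 686 for the cold interaction (149), 639 between genotypes at 4 °C (286) and 8 at 30 °C (1), 872 and 266 with HFD in CTRL and BATKO mice (509 and 9), and 12 and 31 between genotypes on HFD and chow (0 and 0). Without a filter 637 genes were called from 3 to 6 h (364), 606 from 6 to 12 h, 1280 and 336 with HFD in CTRL and BATKO mice, 216 for the diet interaction (0), and 59 and 290 between genotypes on HFD and chow. A fit of only the groups compared called 790 genes from 12 to 24 h (1480), 61 between genotypes at 4 °C, 321 and 66 with HFD in CTRL and BATKO mice, and 114 between genotypes on chow, and a fit of all 30 mice of the hormone experiment 190 from 3 to 6 h. The cause was not tested. No paired analysis was possible because the groups compared hold different mice and share no mouse numbers that mark a common animal, litter or day. Ucp2 rested on 78-828 counts a mouse, and the smallest groups held 2 and 3 mice.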

Other observations

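Carriers related to the uncoupling proteins, and genes of heat production that does not need UCP1, are given here by their counts. Of 7 related carriers, 3 rose and 1 fell at 24 h after hormone in WT mice, where 32.7% of all genes were called; Slc25a4, an ADP/ATP carrier gene, was at a log2 fold change of 0.80 and Slc25a10, the dicarboxylate carrier gene, at -0.82. With cold, 2 rose and 0 fell in CTRL mice and 2 rose and 1 fell in BATKO mice, against 49.1% and 40.3% of all genes called, and Slc25a5, another ADP/ATP carrier gene, stood at 1.08 in CTRL and 1.16 in BATKO mice.

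Of 10 genes of heat production without UCP1, 4 rose and 1 fell at 12 h (25.7% of all genes called) and 4 rose and 0 fell at 24 h after hormone in WT mice, where Ckb, the brain-type creatine kinase gene of the creatine cycle, stood at 3.35 and 3.32 and Alpl, a phosphatase gene of the same cycle, at 1.69 at 24 h. With cold, 3 rose and 3 fell in CTRL mice and 2 rose and 2 fell in BATKO mice. The Ckb cold response, 3.43 (SE 0.33) in CTRL mice, differed between genotypes by -3.70 (SE 0.44, adjusted p = 0.000969). At 4 °C 0 of the 10 were higher and 2 lower in BATKO than in CTRL mice, against 2.16% of all genes called in either direction, Ckb among them at -2.65.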
